A study of Homo sapiens with 32 samples.

Results

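The genes that encode the subunits of RNA polymerases I, II and III were taken as the protein-coding genes of GENCODE 44 whose symbol begins with POLR1, POLR2 or POLR3. The rule found 34 gene records with 33 symbols among 19970 protein-coding records on chromosomes 1 to 22 and X, because POLR2J3 is annotated 2 times with 5′ ends close together that share their summits. By the polymerase they serve, 6 records belonged to polymerase I only, 2 to polymerases I and III, 5 to all 3 enzymes, 11 to polymerase II only and 10 to polymerase III only. POLR2M, which encodes a regulator bound to polymerase II rather than a core subunit, was kept because the rule takes it.

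The measurements came from chromatin immunoprecipitation and sequencing in HEK293T, a human embryonic kidney line, in the clone HEK_CloneZD29, where ZNF143 carries an inducible degron (dTAG). All 32 samples shared this clone and this tag, and fell into 10 groups. Cells were untreated or received 50 nM dTAGV-1, which directs the tagged ZNF143 to degradation, for 30 minutes. SP1, NRF1 and YY1 had 4 samples per condition, and ZNF143, precipitated through an HA tag, and the mock precipitation had 2. The values analysed were 4 lists of peak summits, 1 per antibody, and the lists hold no value per sample or per treatment. The results below therefore describe where summits lie, have no replicate error and no test, and say nothing about the loss of ZNF143. The labels attach the SP1 and ZNF143 lists to treated and untreated samples alike, and the NRF1 and YY1 lists were assigned from the antibody in their names.

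The 3 nuclear RNA polymerases divide transcription among them: polymerase I makes the large ribosomal RNA precursor, polymerase II makes messenger RNA and many small nuclear RNAs, and polymerase III makes transfer RNA, 5S ribosomal RNA and other short RNAs. Each enzyme has a pair of large subunits that form its active centre, a set of small subunits shared with the other enzymes, and subunits of its own. ZNF143, SP1, NRF1 and YY1 are sequence-specific factors found at many housekeeping promoters. NRF1 here is nuclear respiratory factor 1.

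Most of the subunit genes had summits of several factors at their 5′ end. Within 500 bp of the 5′ end of the gene record, 23 of the 34 records had a ZNF143 summit (67.6%), against 31.7% of all protein-coding records. SP1 summits were present at 30 (88.2%, against 59.1%), NRF1 summits at 24 (70.6%, against 48.3%) and YY1 summits at 27 (79.4%, against 57.8%). All 4 lists had a summit at 18 records (52.9%, against 28.1%), and none had one at 3 (8.82%, against 37.3%). The all-gene figures include genes of every expression level, and the part of expression in these shares was not tested. Of the records that had SP1, NRF1 and YY1 summits, 18 of 23 also had ZNF143 (78.3%), against 61.8% of all genes with those 3. SP1, NRF1 and YY1 without ZNF143 were found at 5 records (14.7%, against 17.4%), a share near the background.

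**Figure D1:**
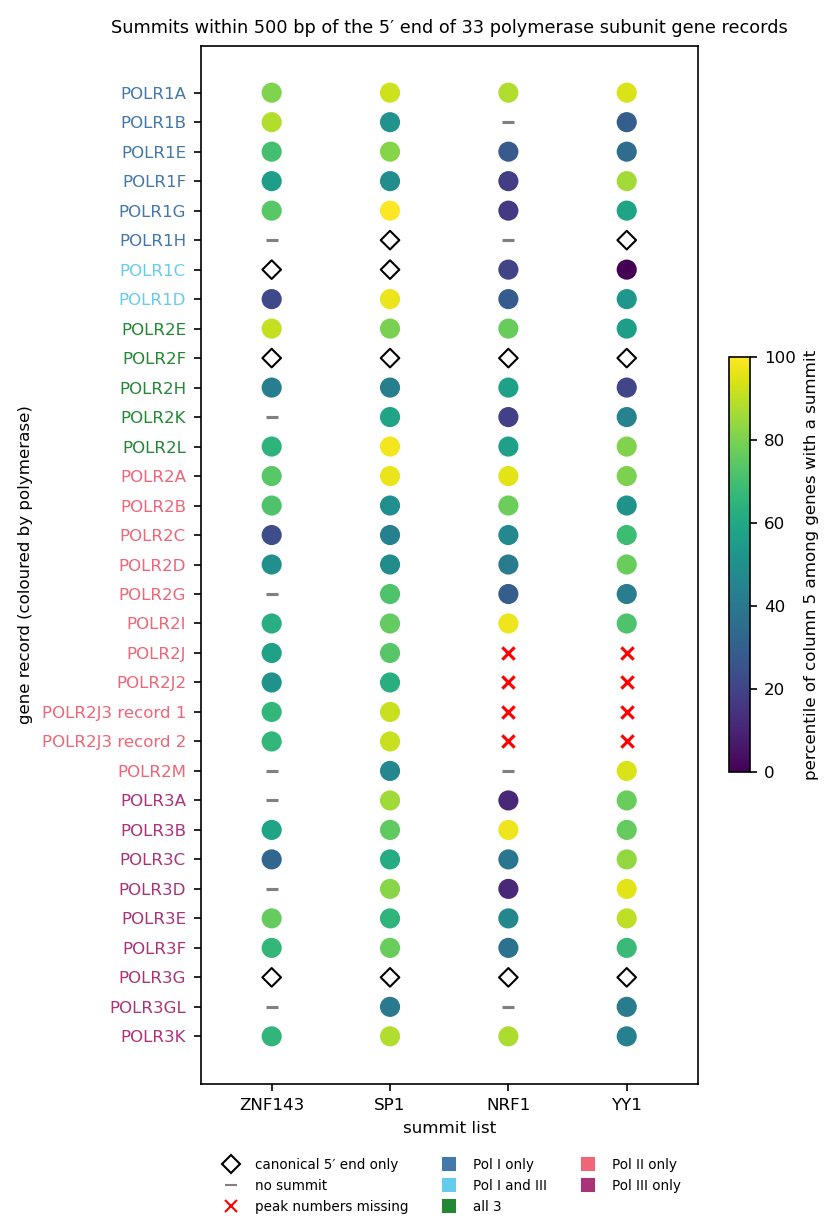
Each row is a gene record and each column a summit list; filled circles mark a summit within 500 bp of the 5′ end of the gene record, coloured by the percentile of its column 5 among all protein-coding genes with a summit in that list. Open diamonds mark summits found only at the canonical 5′ end, and red crosses mark the POLR2J family, where peak numbers are missing from the NRF1 and YY1 lists; 18 of the 33 rows drawn have all 4 circles.

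The 3 records without a summit of any list at the gene record had summits at the 5′ end of the canonical transcript. In single lists, most records without a ZNF143 or NRF1 summit at the gene record had none at the canonical end either. With the 5′ end of the canonical transcript, the counts were 25 for ZNF143 (73.5%, against 34.8%), 34 for SP1 (100%, against 64.5%), 26 for NRF1 (76.5%, against 52.8%) and 30 for YY1 (88.2%, against 63.1%). All 4 lists then met at 20 records (58.8%, against 31.6%), 6 had SP1, NRF1 and YY1 alone (17.6%, against 19.5%), and no record was without a summit (against 33.2%). ZNF143 was present at 20 of the 26 records with the other 3 factors (76.9%, against 61.8%). These counts take the POLR2J family as lacking NRF1 and YY1, although it cannot be read in those lists (below). Without the family, YY1 stood at 27 of 30 records at the gene record (against 57.8%) and 30 of 30 at the canonical end (against 63.1%). NRF1 stood at 24 of 30 (against 48.3%) and 26 of 30 (against 52.8%). The all-gene shares were not corrected in the same way. Over the whole lists, 11467 peak numbers are missing for YY1 and 1380 for NRF1. Other genes in such stretches count as lacking a summit, so these 2 sides are not treated alike.

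The canonical 5′ end lies 7387 bp downstream of the gene record's in POLR1C, a subunit of polymerases I and III, 3116 bp downstream in POLR3G, 2366 bp in POLR1H and 1092 bp in POLR2F, a subunit of all 3 enzymes. POLR2F and POLR3G had no summit at the gene record and all 4 at the canonical end, where POLR2F had a column 5 of 8349 for NRF1 and 3.23 for ZNF143. POLR1C had weak NRF1 (9.66) and YY1 (2.41) summits at the gene record, and at the canonical end 1854 and 959, with SP1 at 177 and ZNF143 at 4.97. POLR1H, a small polymerase I subunit involved in transcript cleavage, had SP1 (12) and YY1 (29.3) summits at the canonical end and neither ZNF143 nor NRF1. In the other direction, POLR1D, the partner of POLR1C, had a ZNF143 summit of 6.95 at the gene record and none at its canonical end.

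**Figure D2:**
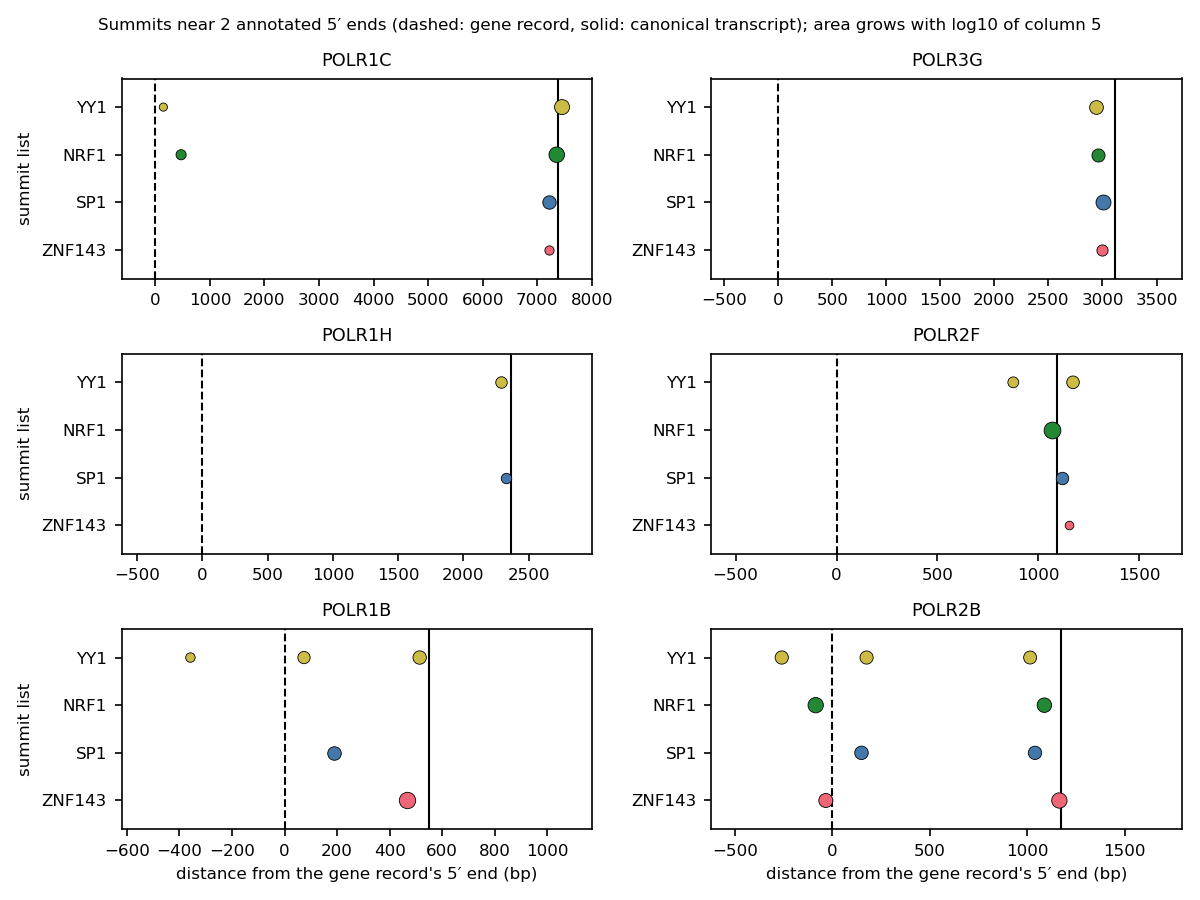
Summits of the 4 lists (rows) within 500 bp of either 5′ end of 6 genes, in bp from the 5′ end of the gene record (dashed line), with the canonical 5′ end as a solid line and the area of a point growing with the log10 of column 5. Summits farther than 500 bp from both ends are not drawn. In POLR1C, POLR3G, POLR1H and POLR2F the higher of the drawn summits lie by the solid line, 7387, 3116, 2366 and 1092 bp from the dashed one.

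Column 5 of a summit list is the −log10 of the peak caller's p or q value, and which of these is not given in the sources used here. It grows with sequencing depth, so it was read within a list only, as a percentile among all protein-coding genes with a summit in that list. The subunit genes with a summit had a median percentile of 65.4 in the ZNF143 list and 75.8 in the SP1 list. The medians were 44.2 for NRF1 and 67.8 for YY1, where all genes have a median of about 50 by construction. The NRF1 median depended on the 5′ end: it was 55.5 at the canonical end and 57 with any transcript's end, on the other side of the all-gene median.

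Among the polymerase I subunits, POLR1A and POLR1B, which form the active centre, stood high for ZNF143. POLR1B had a summit with column 5 of 5111 at 465 bp downstream of the gene record (85 bp upstream of the canonical end), and it had no NRF1 summit at either end. POLR1A had 2 ZNF143 summits. The one of 1998 lay 27 bp upstream of the gene record, and the one of 7019 lay 542 bp downstream of it, just outside the 500 bp window, and 273 bp downstream of the canonical end. Just inside that window lay the YY1 summit of POLR3F at 473 bp and the NRF1 summit of POLR1C at 472 bp. POLR1A was high in the other lists too, at 1060 for SP1, 5160 for NRF1 and 2403 for YY1. POLR1G and POLR1E encode the paired subunits that join the initiation machinery, and had ZNF143 values of 576 and 208. POLR1G had the highest SP1 value of all the subunit genes, 6440 (percentile 99.8), 4 bp from its ZNF143 summit, beside an NRF1 value of 8.33. The SP1 and ZNF143 summits lay 165 and 169 bp upstream of POLR1G. They fall between its 5′ end and that of PPP1R13L, 295 bp upstream on the other strand. POLR1F, a stalk subunit, had 31.8 for ZNF143 and 1008 for YY1.

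The shared subunits differed among themselves. POLR2E had the highest ZNF143 value at a gene record, 6955, 148 bp upstream (percentile 91.3). POLR2L had 70.1 for ZNF143 and 2523 for SP1 (percentile 98.4), and POLR2H had 15.5 and 156. POLR2K had no ZNF143 summit at either 5′ end, with 253 for SP1, 8.96 for NRF1 and 112 for YY1. POLR1D had 1893 for SP1 (percentile 97.1) at the gene record and 232 (percentile 53.7) at its canonical end. The summit of 1893 lay 90 bp upstream of the gene record. It falls between that 5′ end and the one of LNX2, 213 bp upstream on the other strand.

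Among the polymerase II subunits, POLR2A, the largest subunit with the regulated C-terminal repeat domain, was above the all-gene median in all 4 lists, with a column 5 of 580 in ZNF143, 1806 in SP1, 9208 in NRF1 and 586 in YY1. Its ZNF143 and SP1 summits lay 81 and 76 bp upstream, and its higher NRF1 summit 396 bp downstream. A second NRF1 summit, of 2020, lay 65 bp upstream, beside those of ZNF143 and SP1. POLR2B, the other large subunit, had 2 clusters of summits: ZNF143 at 339 and NRF1 at 1446 by the gene record, and ZNF143 at 1456 and NRF1 at 553 by the canonical end 1174 bp downstream. The gene record of POLR2B lies 116 bp from the 5′ end of NOA1 on the other strand. POLR2I had the highest NRF1 value of the subunit genes, 12004 (percentile 97.6), with 56.8 for ZNF143. POLR2C had a ZNF143 value of 7.01 (percentile 23.7), and POLR2D had 23.6, at the all-gene median (percentile 49.9). POLR2G had no ZNF143 summit, and POLR2M had neither ZNF143 nor NRF1, with a YY1 value of 2429 (percentile 94.3).

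Of the 10 polymerase III genes, 5 had a ZNF143 summit at the gene record (against 31.7% of all genes) and 6 at the canonical end (against 34.8%). POLR3E had the highest, 1024, followed by POLR3F (90.4), POLR3K (82.7), POLR3B (39.6) and POLR3C (10.2). The large subunits differed: POLR3B had 11670 for NRF1 (percentile 97.3), 313 bp downstream, while POLR3A had 6.14 for NRF1 and no ZNF143 summit. POLR3D had the highest YY1 value of the subunit genes, 2930, and no ZNF143 summit. POLR3G and POLR3GL are paralogues that occupy the same place in the enzyme. POLR3GL had SP1 (145) and YY1 (100) summits and lacked ZNF143 and NRF1, and POLR3G had all 4 at its canonical end (ZNF143 22.6, SP1 955, NRF1 128 and YY1 254).

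By class, ZNF143 summits stood at 5 of 6 polymerase I records, 1 of 2 for polymerases I and III, 3 of 5 for all 3 enzymes, 9 of 11 for polymerase II and 5 of 10 for polymerase III, against 31.7% of all protein-coding records. Of the 9 polymerase II records, 4 are the near-identical POLR2J family. With classes of 2 to 11 records, no order among the polymerases is drawn from these counts.

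The POLR2J family (POLR2J, POLR2J2 and the 2 records of POLR2J3) cannot be read in the NRF1 and YY1 lists. The NRF1 list skips 16 consecutive peak numbers over 225095 bp that hold all 4 records, and the YY1 list skips 23 over 233321 bp. The 1001 bases around their 5′ ends were 97.6% to 98.2% identical. Their ZNF143 values were 36.9, 24 and 88, and their SP1 values 416, 294 and 1003, but the 31 bases at a summit occur at up to 4 places on chromosome 7, so the copies may share reads. One of these stretches, shown for how little separates the copies, lies at the SP1 summit of POLR2J (hg38, minus strand, chr7:102478924-102478953).
POLR2J: ccccgccggagtaatccggaagaggcctct
The same 31 bases around that summit recur near position 44019192 of chromosome 7, outside the skipped stretch, where all 4 lists have summits, with 6100 for NRF1 and 370 for YY1. Elsewhere, the 31 bases were unique for 28 of the 34 records; POLR1H also matched alternate contigs, and the YY1 stretch of POLR2M matched a second place on chromosome 4 that had no summit.

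Short words known for each factor were searched on both strands within 50 bp of the highest summit: GCGCNTGCG for NRF1, AANATGGCG for YY1, GGGCGG for SP1, and CCCANNATG and ACTACAATT for ZNF143. The 50 bp distance was set after values were seen. Both choices of 5′ end are given, because the canonical end was taken up only after the gene-record counts were known, when POLR1C was seen to carry the NRF1 word there.

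The NRF1 word went with the size of the NRF1 summit. At the gene record it lay at 8 of 24 records (33.3%, against 22.1% of all genes with an NRF1 summit), and at the canonical end at 10 of 26 (38.5%, against 22%). At the gene record the 8 with the word had a column 5 of 1346 or more and the 16 without it had 79.6 or less. At the canonical end the lowest value with the word was 553, at POLR2B, and the highest without it was 202, at POLR1D. Split at a column 5 of 1000, a level chosen after these values were seen, the word was found at 8 of 8 records above and 0 of 16 below with the gene record, and at 9 of 9 above and 1 of 17 below with the canonical end. The same split was present in all genes, with the word at 71.3% above and 5.53% below (gene record). The stretches below are 9 of the 10 at the canonical end, in hg38 and on the strand of the gene, with the word in capitals, which reads GCGCNTGCG or, from the other strand, CGCANGCGC; the capitals of POLR2I and POLR3B hold 2 overlapping words.
POLR1A, chr2:86105870-86105899, minus strand: cgcttccgcgCGCAAGCGCacgttgaatcg
POLR1C, chr6:43517055-43517084, plus strand: ggctactaggaCGCACGCGCgagatagaac
POLR2A, chr17:7484726-7484755, plus strand: tagtgaggtttGCGCCTGCGcagcgcgcct
POLR2B, chr4:56978797-56978826, plus strand: cctacaatttgCGCAGGCGCagatcctaac
POLR2E, chr19:1095365-1095394, minus strand: tcggattcggCGCAGGCGCagtccgcgcgg
POLR2F, chr22:37953674-37953703, plus strand: ctgggttacggCGCAGGCGCaagataagct
POLR2I, chr19:36115195-36115224, minus strand: ggtaaactcGCGCATGCGCactggccttca
POLR3B, chr12:106358043-106358072, plus strand: ggcggtttgtGCGCATGCGCcgggcttctg
POLR3K, chr16:53826-53855, minus strand: aggccaagcgCGCACGCGCaggaactgcgg

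**Figure D3:**
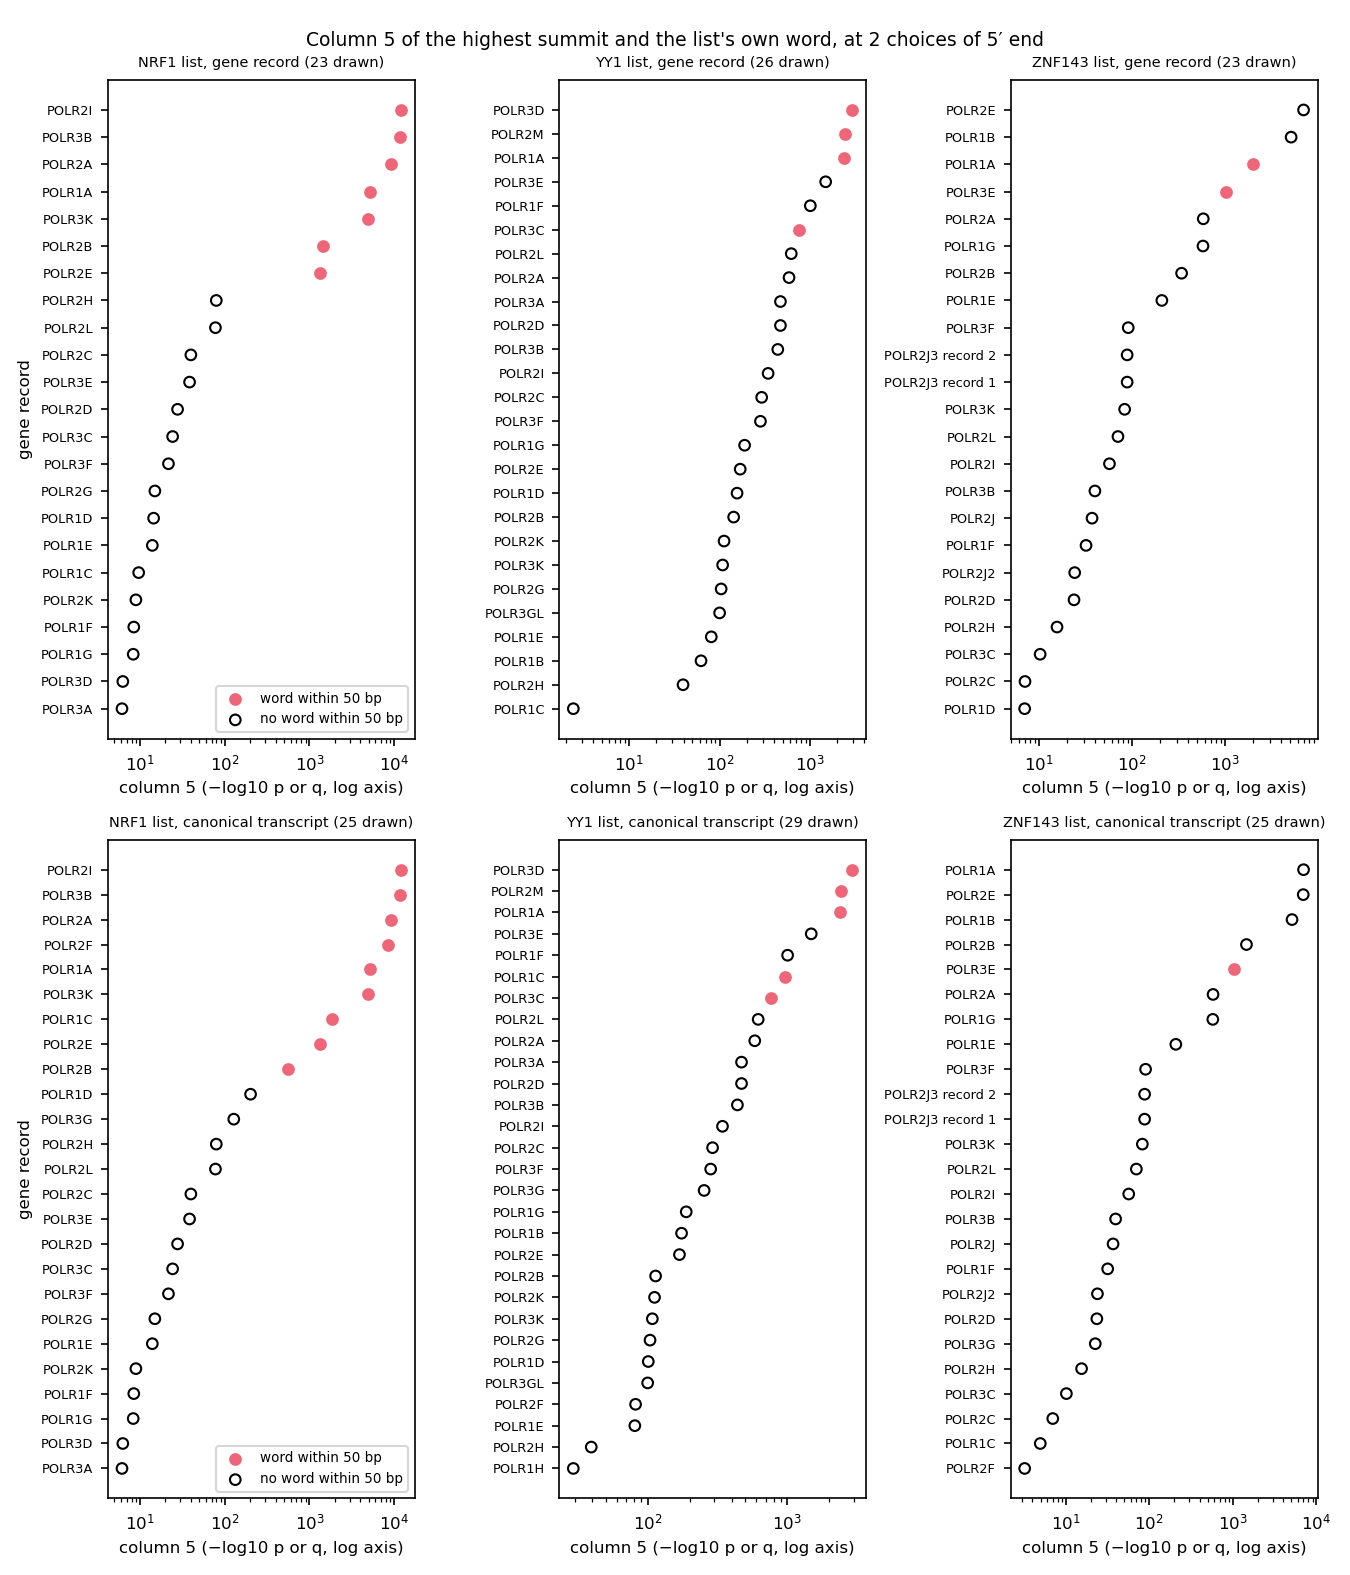
Column 5 of the highest summit (log axis) for the gene records drawn (1 is left out) with a summit in the NRF1, YY1 or ZNF143 list, by the 5′ end of the gene record (top) and of the canonical transcript (bottom); filled points have the list's word within 50 bp. In the NRF1 panels every filled point lies above every open one, and in the ZNF143 panels the highest points are open.

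The ZNF143 words gave a mostly negative result. One or both words lay at 2 of 23 highest summits at the gene record, POLR1A and POLR3E (8.70%, against 6.44% of all genes with a ZNF143 summit). At the canonical end they lay at 1 of 25, POLR3E (4.00%, against 6.30%). In the subunit genes the word was CCCANNATG each time. ACTACAATT lay at none of the subunit genes with either 5′ end. Over all genes with a summit it lay at 78 and 88, which the all-gene shares above include. The highest ZNF143 summits at the gene record, of POLR2E and POLR1B, held neither word, and neither did the POLR1A summit of 7019, the highest at the canonical end. A longer form, ACTACA followed by 3 bases and CCCA, was searched only after the sequence of POLR1B had been seen. It lay at POLR1B alone, 1 of 23 at the gene record and 1 of 25 at the canonical end (4.35% and 4.00%), below the 7.73% and 7.76% of all genes. Since POLR1B prompted the search, its match is a description. The stretches at POLR3E (with CCCANNATG read from the other strand), POLR1B (with the longer form) and POLR2E (with neither) are shown in hg38 on the strand of the gene.
POLR3E, chr16:22297354-22297383, plus strand: ccggggcggggCATTGTGGGtaagaggaaa
POLR1B, chr2:112542365-112542394, plus strand: tggaacgagagggaACTACAtttCCCAgca
POLR2E, chr19:1095498-1095558, minus strand: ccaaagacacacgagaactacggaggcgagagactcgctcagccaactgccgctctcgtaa

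The YY1 word lay at 4 of 27 highest summits at the gene record, POLR1A, POLR2M, POLR3C and POLR3D (14.8%, against 6.56%), and also at POLR1C at the canonical end (5 of 30, 16.7%, against 6.74%). The 3 highest YY1 summits, of POLR3D, POLR2M and POLR1A, held it, while POLR3E (1489) and POLR1F (1008) did not. The POLR1A summit lay 115 bp upstream of the gene record, past the start of PTCD3 on the other strand, 68 bp upstream. The POLR3C summit lay 139 bp upstream, past the start of RNF115 on the other strand, 42 bp downstream of the gene record. Neither summit can be assigned to the subunit gene alone. These 4 stretches show the word on either strand (hg38, strand of the gene).
POLR1A, chr2:86106234-86106263, minus strand: cagatacaacCGCCATCTTtgatttctctg
POLR1C, chr6:43517096-43517125, plus strand: tggagagattgAAGATGGCGgcttctcagg
POLR2M, chr15:57706714-57706743, plus strand: gttcttccgggAAAATGGCGactcccgctc
POLR3C, chr1:145823857-145823886, plus strand: gccgaagcctcCGCCATTTTtgccctccgc
GGGCGG lay at 15 of 30 highest SP1 summits at the gene record (50.0%, against 43.4%) and at 14 of 34 at the canonical end (41.2%, against 44.9%), so which side of the background the subunit genes fell on depended on the 5′ end.

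Within 500 bases either side of the canonical 5′ end, GCGCNTGCG occurred in 14 of the 34 windows (41.2%, against 15.6% of all protein-coding genes), CCCANNATG in 9 (26.5%, against 13.8%), AANATGGCG in 5 (14.7%, against 8.23%), GGGCGG in 32 (94.1%, against 76.9%) and ACTACAATT in 0 (against 0.826%). The POLR2J family contributes 4 windows of nearly the same sequence to the first 2 of these counts. From 250 bases before to 50 after the canonical 5′ end, GCGCNTGCG occurred in 11 windows (32.4%, against 10.9%) and CCCANNATG in 1 (2.94%, against 4.41%), so the difference for CCCANNATG did not hold in the shorter window. Windows of the POLR2J family are also among these 11, and the share without the family was not computed. The median GC content was 60.7%, against 61.3%, and the median observed over expected CpG was 0.796, against 0.725.

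Within 100 bp of the gene record's 5′ end lay 13 of 23 highest ZNF143 summits (56.5%, against 47.4% of all genes with a summit) and 22 of 30 for SP1 (73.3%, against 52.8%). Both counts include every record of the near-identical POLR2J family, at -3, 27, 79 and 9 bp in the ZNF143 list. The POLR2J3 records share the same summit, and the shares without the family were not computed, so no difference from all genes is drawn for ZNF143. The shares were near those of all genes for NRF1 (11 of 24, 45.8%, against 46.7%) and YY1 (11 of 27, 40.7%, against 35.2%). The median signed offset from the gene record was -18 bp in the ZNF143 list, -15 bp in the SP1 list, -32 bp in the NRF1 list and 43 bp in the YY1 list, negative being upstream, and the same medians over all genes were -19, -38, -29 and 60 bp. From the canonical end they were -37, -58, -82.5 and -2.5 bp, against -59, -73, -66 and 30 bp. The downstream median of YY1 at the gene record thus did not hold at the canonical end for the subunit genes. The distance between the ZNF143 and SP1 summits of a gene, taken at the gene record only, had a median of 32 bp in 23 subunit records, and 16 of them (69.6%) lay within 50 bp, against a median of 55 bp and 47.7% in all genes. The 16 include the whole POLR2J family, at 14, 34, 11 and 11 bp, where both POLR2J3 records count the same pair of summits. ZNF143 and YY1 summits lay further apart, with a median of 127 bp, against 70 bp in all genes.

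**Figure D4:**
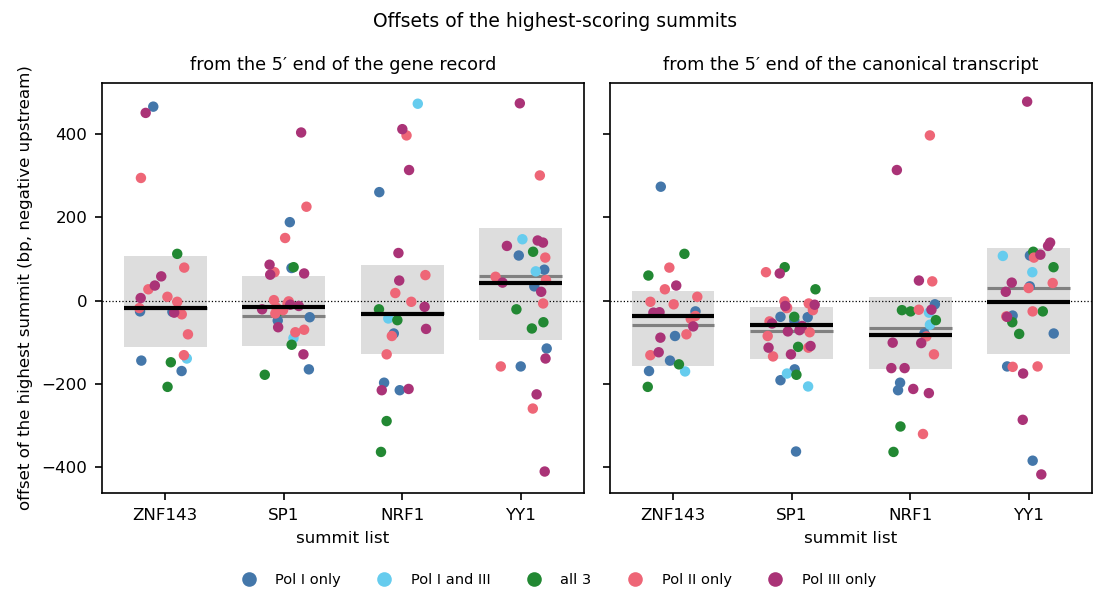
Offset in bp of the highest summit of each list from the 5′ end of the gene record (left) and of the canonical transcript (right); points are gene records coloured by polymerase, black lines their median, grey boxes and lines the quartiles and median of all protein-coding genes. The black line for YY1 lies at 43 bp on the left and at -2.5 bp on the right.

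At the canonical 5′ end, 12 of the 34 records (35.3%, against 9.62% of all genes) had the 5′ end of a protein-coding gene on the other strand within 1000 bp upstream. They include POLR2A with ZBTB4 (103 bp), POLR2F with C22orf23 (30 bp), POLR1C with YIPF3 (104 bp), POLR3G with MBLAC2 (93 bp) and POLR3K with SNRNP25 (220 bp). POLR1A with PTCD3 (337 bp), POLR1G with PPP1R13L (295 bp) and POLR3C with RNF115 (105 bp) are also among them. A summit between 2 such starts cannot be assigned to one of them.

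Among 21 genes for polymerase assembly factors and partners, ZNF143 summits were present at 11, SP1 at 17, NRF1 at 18, YY1 at 19 and all 4 at 10, at the gene record. As shares of all protein-coding records these summits stood at 31.7%, 59.1%, 48.3%, 57.8% and 28.1%, in the same order. The highest ZNF143 values were those of MAF1, the repressor of polymerase III (13778), and POLRMT, the mitochondrial RNA polymerase (7097, with 14646 for NRF1). The MAF1 summit lay 455 bp downstream of the gene record's 5′ end, near the edge of the 500 bp window. PIH1D1 (2016) and RPAP3 (1528), which act in polymerase assembly, followed. GPN1 and URI1 had no summit of any list within 500 bp of the gene record's 5′ end. The canonical ends of these partner genes were not examined.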

How the data were processed

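The analysis used 4 deposited lists of 1-bp summits in hg38, a build named per the submitters' processing notes together with cutadapt, Bowtie2, SAMtools 1.16.1, MACS3 and bedtools, with no roles given. Column 5 of the deposited lists is a −log10 p-value or q-value; filters, pooling and read depth are not given in the sources used here. Lists held 16600 (ZNF143), 126275 (SP1), 39194 (NRF1) and 106658 (YY1) summits. All contigs matched the reference and no summit lay beyond a contig's end. Signal tracks and mock samples were not analysed here.

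For each GENCODE 44 protein-coding record on chromosomes 1 to 22 and X, the summit with the highest column 5 within 500 bp of the 5′ end of the gene record was taken (Python 3.11.15, numpy 2.4.6, pysam 0.24.0). The search was checked on simulated data. Percentiles are the share of genes with a summit in the list whose value is lower. The members and lists were chosen with earlier results of these data known. Named genes are the 12 highest in ZNF143, the 3 highest of each other list, records lacking SP1, NRF1 or YY1, the paralogues and the largest subunits; others were named after their values were seen. The word distance, the level of 1000, the canonical end for words and the longer ZNF143 word were also chosen after values were seen. 1 gene is counted but not reported here by name. No test was run, since the lists hold no replicates.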

Additional observations from a re-analysis of the deposited data

How the results depend on the processing

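The 18 summary results were recomputed under 128 alternative values, of which 120 kept their sign and moved by less than 1.5 times (counts) or by less than 1 SD over the records (offsets and percentiles), a wide margin for offsets. Within it, the median offset at the canonical end went from -15 to -58 bp for SP1, from -32 to -82.5 bp for NRF1 and from -18 to -37 bp for ZNF143 (-3 bp with the 1000 bp window). The NRF1 median percentile went from 44.2 to 55.5 at the canonical end and 57 with any transcript's end, past the all-gene 50. The settings were windows of 250 and 1000 bp, the top 50% of each list, equal lists of 16165 summits, the canonical or any transcript's 5′ end, and the nearest summit. The median YY1 offset turned to -2.5 bp with the canonical end and -9.5 bp with any transcript's end. The median ZNF143 percentile fell to 44 in the top 50% of the list, and the records with SP1, NRF1 and YY1 but no ZNF143 fell from 5 to 2 at equal list length. The cause was not tested. Alternatives added after the data were seen left out the POLR2J family, counted POLR2J3 once, and moved the words. With the word within 25 bp, its count went from 15 to 9 for SP1, from 4 to 2 for YY1 and from 2 to 1 for ZNF143, and the ZNF143 count was also 1 at the canonical end; the NRF1 count was 7 within 25 bp, 8 within 100 bp and 10 at the canonical end. Leaving out a replicate was not run, as the lists hold no value per sample. No paired analysis was possible because the lists carry no replicate numbers and no result comes from a test. Depth is unknown, so a missing summit means only that none was listed.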
